A study of Homo sapiens and Mus musculus with 10 samples.

Results

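Expression of 10 established target genes of the YAP/TEAD transcription complex was followed in A375 cells, an established human melanoma line, of which 3 cultures stayed untreated (Ctrl) and 3 received 80 µg/mL of LL-37 over 24 h. This peptide is the active antimicrobial fragment of cathelicidin. The genes were taken by symbol as a fixed list of CCN1, CCN2, THBS1, F3, CRIM1, ANKRD1, AMOTL1, AMOTL2, AJUBA and LATS2, and all 10 were found among the 63140 gene rows of the human table. Both groups are the same line, and no further treatment is named. The triplicates are described as biological with no further detail, and p-values here reflect only how far these 6 libraries spread. Levels are TPM, relative transcript abundances that account for transcript length and library total and keep no sequencing depth. Differences were taken after a log2(TPM + 1) transform, in which changes of low genes come out too small.

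YAP1 and its paralog TAZ, the product of WWTR1, are coactivators that lack a DNA-binding domain and reach their target genes through the TEAD factors. The Hippo kinases LATS1 and LATS2 phosphorylate them and keep them in the cytoplasm, while cell spreading and actin tension favour their entry into the nucleus. In melanoma, YAP and TAZ activity is known for invasive growth and drug tolerance. Several targets act back on the pathway, so that a list of targets also holds inhibitors of YAP.

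TEAD factors recognise the letters GGAATG, and RefSeq promoter windows were used to show where these letters lie upstream of the target genes. Windows were matched for 8 of the 10 genes, with 10 windows in all. CCN1 and CRIM1 had no window and were not searched. The 250 bases before each start were searched for GGAATG on both strands. It was found in 5 of the 10 windows, each of another gene, against 11.9% of all 35116 windows of this length. CCN2 held it at 3 places, as did 0.0797% of all windows with 3 or more, and ANKRD1 at 2, where 0.928% of windows held 2 or more. The AP-1 letters TGANTCA, searched on both strands, were found at 2 places in F3 and 1 in ANKRD1, and in 6.57% of all windows. The CArG box letters of serum response factor had no match in the target windows, against 1.16% of all windows. The 250 bases upstream of CCN2 and THBS1 are printed. CCN2 held the letters most often, and THBS1 is the other searched secreted target with them. For ANKRD1, AMOTL2 and AJUBA, 30-base stretches are printed. All are on build GRCh38.p14, 5′ to 3′ on the strand of the gene, with GGAATG or its reverse complement in capitals. The CCN2 window is chr6:131951373-131951622 (minus strand) and the THBS1 window chr15:39580829-39581078 (plus strand). The ANKRD1 stretches are chr10:90921290-90921319 and chr10:90921198-90921227 (minus strand). The second lies within the ANKRD1 span given below (90912096 to 90921276), as the window was taken before the RefSeq start. The AMOTL2 and AJUBA stretches lie upstream of a downstream start of each gene, at chr3:134374499-134374528 and chr14:22976884-22976913 (minus strand). A match is a description of letters and not a measured binding site.
CCN2 upstream: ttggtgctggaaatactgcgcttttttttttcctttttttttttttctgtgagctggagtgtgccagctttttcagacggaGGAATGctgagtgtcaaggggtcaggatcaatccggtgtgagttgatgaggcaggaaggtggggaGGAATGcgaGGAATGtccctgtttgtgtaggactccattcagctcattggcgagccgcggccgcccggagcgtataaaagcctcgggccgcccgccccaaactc
THBS1 upstream: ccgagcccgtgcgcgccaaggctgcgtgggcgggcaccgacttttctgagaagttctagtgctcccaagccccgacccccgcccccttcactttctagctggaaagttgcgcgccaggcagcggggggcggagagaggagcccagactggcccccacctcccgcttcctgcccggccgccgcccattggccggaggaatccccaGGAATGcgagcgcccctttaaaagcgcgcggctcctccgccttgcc
ANKRD1 distal: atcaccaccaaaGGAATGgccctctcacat
ANKRD1 proximal: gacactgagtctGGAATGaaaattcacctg
AMOTL2 second start: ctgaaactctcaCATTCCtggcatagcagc
AJUBA second start: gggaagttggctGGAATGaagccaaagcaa

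One library, LL-37 replicate 3, differed from the rest, and results are given with and without it. It correlated with them at 0.949 to 0.963, against at least 0.985 among the other 5, and 12991 of its genes reached 1 TPM, where the others had 14304 to 14555. Of the 8 melanoma lineage markers, which summed to 2481 to 2741 TPM in Ctrl and 1411 to 2590 TPM with LL-37, SOX10 was 266 to 296 TPM in Ctrl and 147 to 387 TPM with LL-37, and VIM was 2171 to 2402 and 1223 to 2168 TPM. VIM made up most of the lineage sum, so that the sum says little of the other lineage markers. The pigment genes TYR and MLANA were at 0 or up to 0.02 TPM. PMEL and DCT reached at most 1.25 and 0.74 TPM in any library. Across Ctrl and LL-37 libraries together, MITF was 1.75 to 5.45 TPM and S100B 27.1 to 38.2 TPM. The MITF groups lay apart, lower with LL-37, and those of S100B overlapped. The labels' protocols speak of keratinocytes, and the keratinocyte genes KRT1 and DSG3 were at 0 in all libraries and KRT5 was at 0 in 5 of 6, while KRT14 was 1.43 to 1.66 TPM in Ctrl and 1.15 to 1.98 TPM with LL-37. The summed level of the 6 keratinocyte genes was 28.8 to 29.96 TPM in Ctrl and 21.3 to 26.8 TPM with LL-37, most of it KRT10, at 25.05 to 26.1 and 18.4 to 24.6 TPM. DSC3 was 2.18 to 2.35 and 0.92 to 1.94 TPM. Fibroblast, leukocyte and endothelial markers summed to 7.13 to 8.02, 35.8 to 42.8 and 2.08 to 2.56 TPM in Ctrl and to 3.34 to 7.97, 22.6 to 41.6 and 0.94 to 3.27 TPM with LL-37. Of the fibroblast markers, PDGFRB averaged 4.04 and 2.92 TPM and PDGFRA 1.26 and 1.23 TPM. CD68 and LYZ made up nearly all of the leukocyte sum, and KDR most of the endothelial one. PTPRC and CD3E reached at most 0.07 and 0.06 TPM in any library. PECAM1, CDH5 and VWF reached at most 0.28, 0.1 and 0.73 TPM. The other fibroblast markers COL1A1, COL1A2, DCN and LUM reached at most 0.71, 0.13, 0.4 and 1.58 TPM. The part of these markers in the results was not tested, and in bulk RNA fewer cells of a type and less RNA per cell cannot be told apart.

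No target gene passed the threshold of an adjusted p under 0.05 in limma, a moderated test over the 14399 genes that reached 1 TPM in 3 or more libraries. Of the 10 targets, 9 met that filter and 0 passed with all libraries, where 0% of all tested genes passed, and 1 of the 9 (CCN2) had an unadjusted p under 0.05 with a lower level. That held for 1.86% of all genes. Without LL-37 replicate 3, 0 of 9 passed, against 0.118% of all genes, and 2 of 9 (CCN1 and CCN2) had an unadjusted p under 0.05 with a lower level, against 4.10%. Over all tested genes 363 and 1298 had an unadjusted p under 0.05 with all libraries and without that library. CCN1 and CCN2 were the 2 tested targets whose LL-37 libraries all lay below every Ctrl library, and no target lay wholly above. Over all genes 10.3% lay wholly below and 2.13% wholly above. Without LL-37 replicate 3, CCN1 and CCN2 were again the 2 tested targets that lay wholly below, against 12.9% of all genes, and AMOTL2 lay wholly above, against 12.3%. The median log2 change of the 9 targets was -0.45 with all libraries, beside -0.20 for all genes, and 0.03 without LL-37 replicate 3, beside 0.00.

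**Figure D1:**
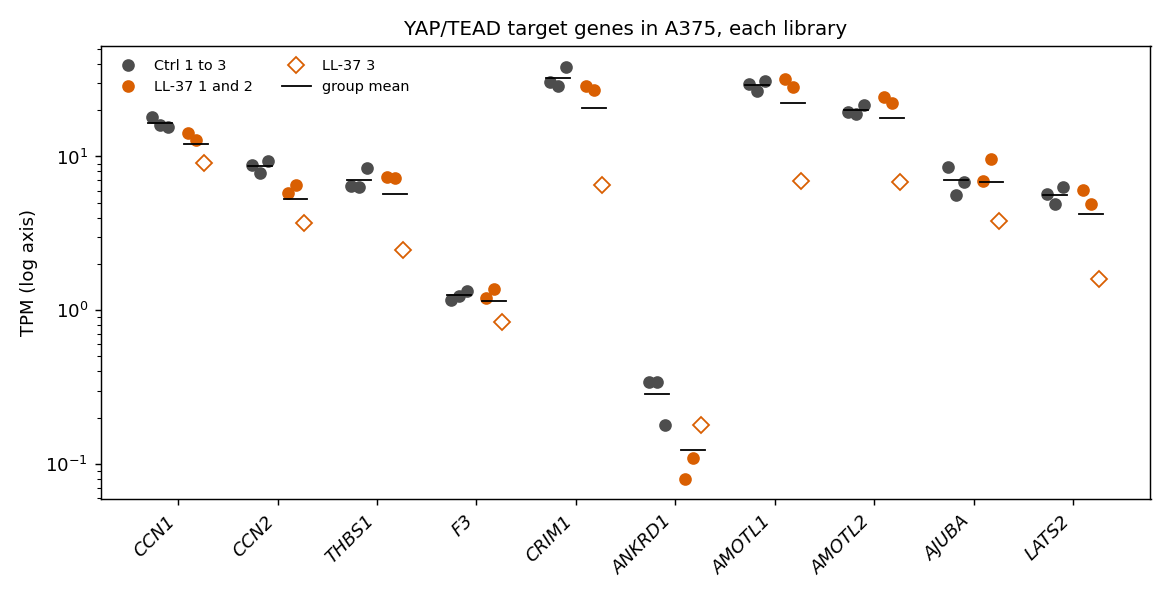
TPM on a log axis of the 10 target genes in each A375 library, with Ctrl in grey, LL-37 replicates 1 and 2 as filled orange circles, LL-37 replicate 3 as an open diamond and group means as bars. For CCN1 and CCN2 all 3 LL-37 libraries sit below the Ctrl libraries, while for most other targets only the diamond does.

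The levels of the targets in Ctrl spanned from 0.287 to 32.5 TPM, which compares genes per length. CRIM1 (32.5 ± 5.23 TPM, SD, n = 3) and AMOTL1 (29.1 ± 2.21) were highest and their ranges overlapped. AMOTL2 (20.1 ± 1.44) and CCN1 (16.6 ± 1.42) came next, each apart from its neighbours in the order. CCN2 (8.68 ± 0.80), THBS1 (7.04 ± 1.20), AJUBA (6.99 ± 1.47) and LATS2 (5.66 ± 0.716) formed a run in which each overlapped the next. F3 (1.25 ± 0.0802) and ANKRD1 (0.287 ± 0.0924) were lowest and apart from all others. For comparison, WWTR1 had 268 ± 21.4 TPM.

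CCN1 and CCN2 encode matricellular proteins of the CCN family, secreted factors that bind integrins and matrix, and are the most widely used readouts of YAP activity. CCN1 (ENSG00000142871, chromosome 1, 85580761 to 85583962, GRCh38) was 18.2, 16.0 and 15.5 TPM in Ctrl and 14.2, 12.8 and 9.13 TPM with LL-37. All 3 LL-37 values lay below the lowest Ctrl value, the nearest pair being 14.2 and 15.5 TPM. The mean was 27.4% lower, or -0.45 ± 0.20 in log2 units (SE; limma, adjusted p = 0.739), and without LL-37 replicate 3 it was 18.7% lower, -0.28 ± 0.10 (adjusted p = 0.454).

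CCN2 (ENSG00000118523, chromosome 6, 131948176 to 131951373) was 8.86, 7.81 and 9.38 TPM in Ctrl and 5.75, 6.49 and 3.71 TPM with LL-37. All 3 LL-37 values again lay below the lowest Ctrl value, the nearest pair being 6.49 and 7.81 TPM. The mean was 38.8% lower, or -0.64 ± 0.23 in log2 units (SE; limma, adjusted p = 0.739), and without LL-37 replicate 3 it was 29.5% lower, -0.44 ± 0.12 (adjusted p = 0.267). The 95% interval of the CCN2 change was -1.19 to -0.09 with all libraries and -0.72 to -0.17 without that library. For CCN1 it was -0.93 to 0.03 and -0.52 to -0.04. In an exact two-sided permutation test over the 20 regroupings of the 6 libraries, CCN1 and CCN2 each gave p = 0.1, the smallest that 3 against 3 can give. Both genes had a negative change in all 19 alternative settings, and neither passed in any. With median-of-ratios scaling and quantile normalization the change was -0.22 in both for CCN1, and -0.43 and -0.38 for CCN2. Over the 19 settings the adjusted p (limma) was 0.305 to 0.921 for CCN1 and 0.169 to 0.921 for CCN2.

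THBS1 encodes thrombospondin 1, another secreted matricellular protein (ENSG00000137801, chromosome 15, 39581079 to 39599466). It was 6.39, 6.31 and 8.42 TPM in Ctrl and 7.35, 7.23 and 2.47 TPM with LL-37. Replicates 1 and 2 lay inside the Ctrl range and replicate 3 far below it. The log2 change was -0.36 ± 0.37 (SE) over all libraries and 0.05 ± 0.14 once LL-37 replicate 3 was left out, with a 95% interval of -0.26 to 0.37 in the latter.

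F3 and CRIM1 encode membrane proteins. F3 is tissue factor, the starter of the extrinsic clotting pathway (ENSG00000117525, chromosome 1, 94529225 to 94541800), and was 1.17, 1.24 and 1.33 TPM in Ctrl and 1.20, 1.38 and 0.84 TPM with LL-37. The groups overlapped, and the log2 change was -0.08 ± 0.16 (SE) over all libraries and 0.03 ± 0.15 once LL-37 replicate 3 was left out. CRIM1 is a transmembrane protein that binds bone morphogenetic proteins (ENSG00000150938, chromosome 2, 36355926 to 36551135). It was 30.5, 28.6 and 38.5 TPM in Ctrl and 28.7, 27.1 and 6.48 TPM with LL-37. Replicate 1 lay just inside the Ctrl range, replicate 2 just below it, and replicate 3 at 0.232 of the mean of the other 2. The log2 change was the largest of the targets with all libraries, -0.85 ± 0.53 (SE), and -0.20 ± 0.12 without that library (95% interval -0.49 to 0.08).

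ANKRD1 encodes an ankyrin repeat protein of nucleus and sarcomere and is a widely used YAP target (ENSG00000148677, chromosome 10, 90912096 to 90921276). Here it was 0.34, 0.34 and 0.18 TPM in Ctrl and 0.08, 0.11 and 0.18 TPM with LL-37. Replicates 1 and 2 with LL-37 lay below Ctrl and replicate 3 equalled the lowest Ctrl value. All 6 values lay below 1 TPM, so that ANKRD1 did not enter the limma test, and an exact two-sided permutation test gave p = 0.2. No counting error can be given for such low values.

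AMOTL1, AMOTL2, AJUBA and LATS2 act on the pathway itself. AMOTL1 and AMOTL2 are angiomotin-like proteins that bind YAP and hold it at junctions and actin. AMOTL1 (ENSG00000166025, chromosome 11, 94706431 to 94876753) was 29.7, 26.7 and 30.96 TPM in Ctrl and 31.7, 28.5 and 6.97 TPM with LL-37. Replicate 1 lay just above the Ctrl range, replicate 2 inside it and replicate 3 far below. Its log2 change was -0.61 ± 0.53 (SE) over all libraries and 0.05 ± 0.09 once LL-37 replicate 3 was left out. AMOTL2 (ENSG00000114019, chromosome 3, 134355874 to 134375479) was 19.6, 18.95 and 21.7 TPM in Ctrl and 24.3, 22.2 and 6.78 TPM with LL-37. Replicates 1 and 2 lay above every Ctrl library and replicate 3 below every one. The log2 change of AMOTL2 was -0.34 ± 0.45 (SE) over all libraries and 0.20 ± 0.09 once LL-37 replicate 3 was left out (limma adjusted p = 0.580, 95% interval -0.01 to 0.42), a turn of sign.

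AJUBA is a LIM protein that binds LATS kinases and restrains them (ENSG00000129474, chromosome 14, 22971174 to 22982642). It was 8.51, 5.58 and 6.87 TPM in Ctrl and 6.94, 9.64 and 3.80 TPM with LL-37, with wide and overlapping groups. The log2 change was -0.09 ± 0.33 (SE) over all libraries and 0.22 ± 0.18 once LL-37 replicate 3 was left out. AJUBA shares 50 exonic bases on the same strand with another annotated gene, AL132780.3, at 3.97 to 12.3 TPM, and how reads were divided between them is not given. LATS2 is the kinase that phosphorylates YAP and TAZ (ENSG00000150457, chromosome 13, 20973032 to 21061547), and was 5.70, 4.92 and 6.35 TPM in Ctrl and 6.09, 4.94 and 1.60 TPM with LL-37. Both of the first 2 LL-37 libraries lay in the Ctrl range. The log2 change of LATS2 was -0.47 ± 0.39 (SE) over all libraries and -0.03 ± 0.14 once LL-37 replicate 3 was left out. THBS1, CRIM1 and AMOTL1 overlap opposite-strand genes at up to 1.15 TPM, CCN2 overlaps AL133346.1, not analysed here, and whether the counting used strand is not given.

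**Figure D2:**
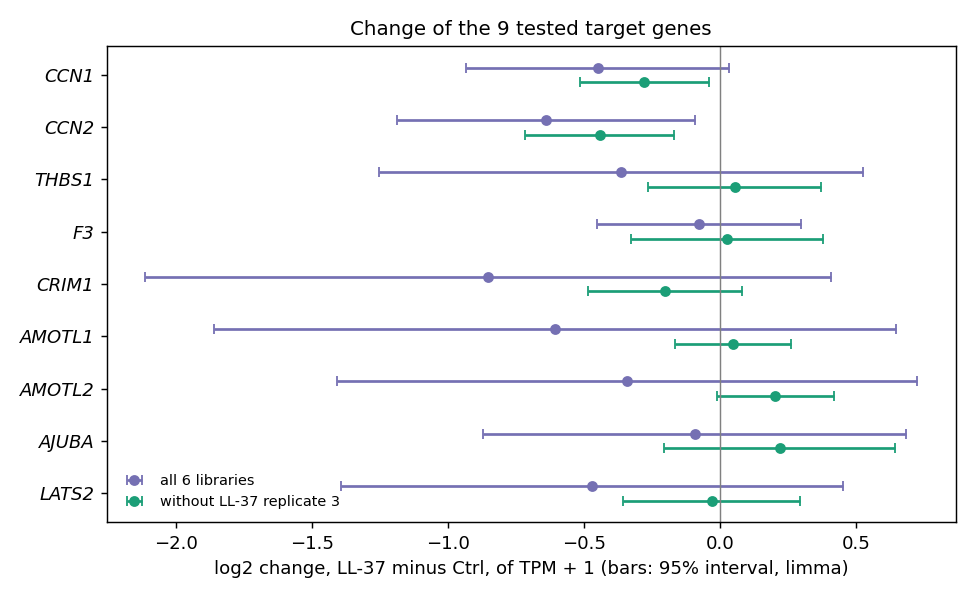
Log2 change of TPM + 1, LL-37 minus Ctrl, for the 9 tested targets, with 95% intervals from limma, for all 6 libraries (purple) and without LL-37 replicate 3 (green). Without that library the intervals of CCN1 (-0.52 to -0.04) and CCN2 (-0.72 to -0.17) lie below 0. Those of the other 7 cross it. The intervals are not adjusted for the number of genes tested, and neither gene passed (limma, adjusted p = 0.454 and 0.267).

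The low values of LL-37 replicate 3 went with transcript length. Over the 13878 tested genes with a length, this library minus the mean of LL-37 replicates 1 and 2 had a median log2 difference of -0.10 for genes whose longest transcript has up to 1000 bases, -0.52 between 2000 and 4000 bases and -1.09 for over 6000 bases. The Spearman correlation across genes was -0.53, where genes are not independent and share the library. CCN1, CCN2 and F3 have short transcripts of 2290, 2339 and 2287 bases, and their levels in replicate 3 were 0.678, 0.606 and 0.651 of the mean of the other 2 LL-37 libraries. AMOTL1, THBS1, CRIM1, LATS2 and AMOTL2 have 8970, 7775, 5912, 5511 and 4521 bases, and were at 0.231, 0.339, 0.232, 0.290 and 0.291. AJUBA, with 4262 bases, was at 0.458.

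**Figure D3:**
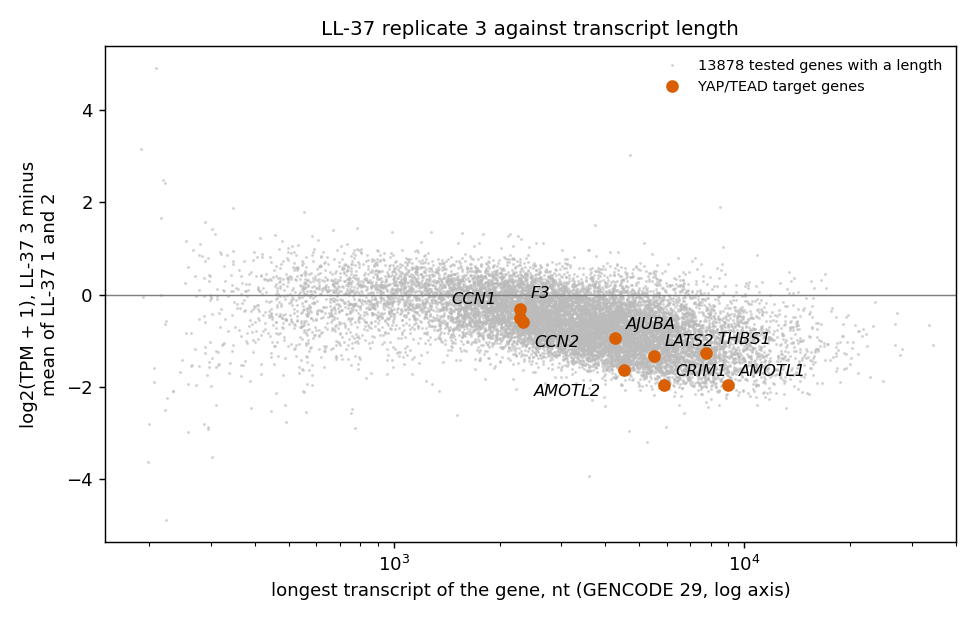
Log2(TPM + 1) of LL-37 replicate 3 minus the mean of LL-37 replicates 1 and 2, against the longest transcript per gene on a log axis, for 13878 tested genes (grey) and the 9 tested targets (orange). CCN1, CCN2 and F3, with 2287 to 2339 bases, lie nearest to 0 among the targets, and AMOTL1, with 8970 bases, among the lowest.

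With the length trend of each library removed, a setting chosen after the data were seen, CCN2 stood at -0.54, -0.35 and -0.66 log2 units from the Ctrl mean in LL-37 replicates 1, 2 and 3, while the Ctrl libraries lay between -0.11 and 0.08. CCN1 stood at -0.23, -0.33 and -0.43, with Ctrl between -0.11 and 0.13. The 3 LL-37 libraries were thus on one side for both genes, and so were those of CRIM1, whose Ctrl libraries lay between -0.12 and 0.20. The share of all genes on one side in this setting was not computed. The log2 change was -0.52 ± 0.12 (SE; limma, adjusted p = 0.642) for CCN2 and -0.33 ± 0.11 (adjusted p = 0.867) for CCN1. AMOTL2 stood at 0.23, 0.18 and -0.62, and CRIM1 at -0.20, -0.20 and -1.19, with replicate 3 still below the other libraries. The same held for AMOTL1 (-0.81) and LATS2 (-0.43). THBS1 in replicate 3 stood at -0.14, F3 at 0.07 and AJUBA at 0.06, and of these THBS1 and AJUBA lay inside their Ctrl ranges.

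Measures taken within a library do not use a scaling between libraries. The CCN2 level was at the 40.3 to 42.3 percentile of tested genes in Ctrl. With LL-37, replicate 3 included, it was at the 31.7 to 36.5 percentile. These ranges did not overlap, and the share of all genes apart by percentile was not computed. CCN1 was at the 55.4 to 59.8 percentile and at the 51.5 to 56.7 percentile, which overlapped. Percentiles are not free of the traits of LL-37 replicate 3. There CRIM1 was at 48.9 and F3 at 8.5, against 70.8 to 77.7 and 4.28 to 6.93 in the other libraries. The ratio of CCN2 to F3, a target of nearly the same length, was 7.57, 6.30 and 7.05 in Ctrl and 4.79, 4.70 and 4.42 with LL-37. F3 was low, at 0.84 to 1.38 TPM, and no counting error can be given for ratios to it. The ratio of CCN1 to F3 was 15.6, 12.9 and 11.7 in Ctrl and 11.8, 9.25 and 10.9 with LL-37, and these groups overlapped. The ratio of CCN2 to AMOTL2 was 0.452, 0.412 and 0.432 in Ctrl and 0.236, 0.292 and 0.547 with LL-37, below Ctrl in replicates 1 and 2 and above it in replicate 3. The ratios were chosen after the values were seen. The ratio of CCN2 to CCN1 was 0.487, 0.489 and 0.604 in Ctrl and 0.406, 0.508 and 0.406 with LL-37, and these groups overlapped.

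The coactivators and TEAD factors themselves were expressed in all libraries. WWTR1 was 281, 243 and 281 TPM in Ctrl and 262, 250 and 126 TPM with LL-37, and YAP1 was 51.3, 44.7 and 50.3 and then 47.3, 43.1 and 14.5 TPM. WWTR1 thus had several times the level of YAP1 per length in every library, and for both genes LL-37 replicate 3 alone was far below Ctrl. Their log2 changes were -0.40 ± 0.28 and -0.63 ± 0.43 (SE) with all libraries and -0.07 ± 0.08 and -0.11 ± 0.09 without that library. TEAD4 was 17.4, 17.2 and 17.6 TPM in Ctrl and 19.2, 15.4 and 9.70 TPM with LL-37. TEAD1 was 14, 13.3 and 17.9 and then 14.8, 11.6 and 2.31 TPM, and TEAD3 was 3.72, 4.10 and 4.4 and then 4.30, 3.78 and 1.35 TPM. TEAD2 was 13.3, 13.6 and 12.9 TPM in Ctrl and 10.4, 10.7 and 9.86 TPM with LL-37, and its 3 LL-37 libraries lay close together and below Ctrl. Its log2 change was -0.33 ± 0.15 (SE; limma, adjusted p = 0.739) and -0.30 ± 0.09 without LL-37 replicate 3 (adjusted p = 0.319). With all libraries the TEAD2 change was -0.10 ± 0.19 with median-of-ratios scaling and -0.11 ± 0.20 with quantile normalization. The other 3 TEAD genes had changes of -0.18 to -0.01 without that library.

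**Figure D4:**
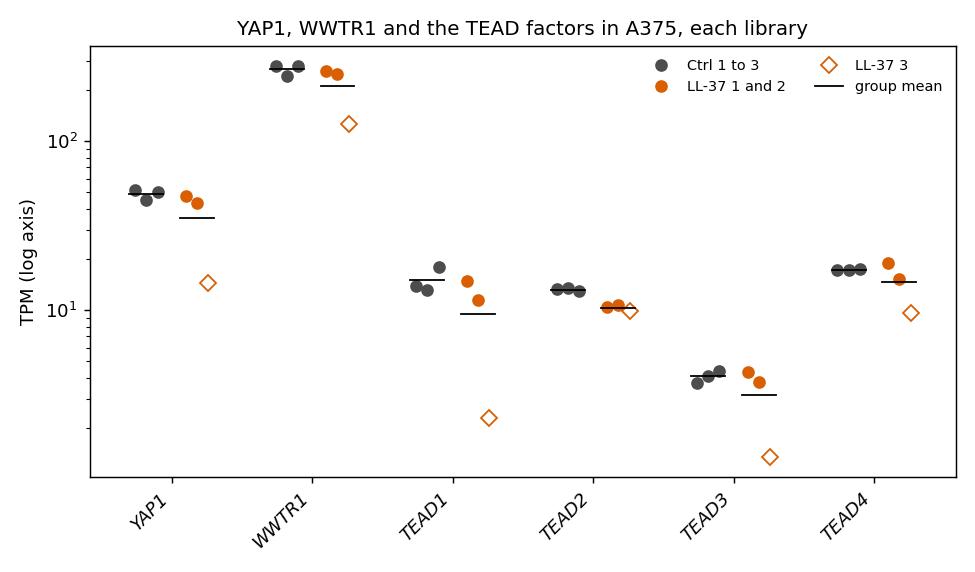
TPM on a log axis of YAP1, WWTR1 and TEAD1 to TEAD4 in each A375 library, drawn as in the plot of target levels. WWTR1 is highest at 126 to 281 TPM, and TEAD2 is the gene whose 3 LL-37 libraries lie together, at 9.86 to 10.7 TPM, below its Ctrl libraries.

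Of the 28 listed Hippo pathway genes, which hold these 6 and the kinases, scaffolds and cofactors around them, 25 were tested and 0 passed with all libraries or without LL-37 replicate 3. Their median log2 change was -0.40 and -0.02, beside -0.20 and 0.00 for all genes. With all libraries the groups lay apart for 4 of 25 (all lower), where 10.3% of all tested genes lay wholly below. These were TEAD2, MOB1A, AMOT and FRMD6, named after their values were seen. Without LL-37 replicate 3, 4 lay wholly below and 1 wholly above, where 12.9% and 12.3% of all tested genes did. FRMD6, a FERM domain scaffold linked to the Hippo kinases, was 21.3, 18.9 and 22.1 TPM in Ctrl and 16.5, 16.1 and 7.82 TPM with LL-37. After WWTR1, the polarity scaffold SCRIB had the highest mean level of the list, at 56.4 ± 4.11 and 49.2 ± 22.3 TPM.

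Of 15 further genes used as YAP/TAZ targets, 14 were tested, 0 passed with all libraries and 1 passed without LL-37 replicate 3, where 0.118% of all tested genes did. This was IGFBP3, which binds insulin-like growth factors in the extracellular space, and it was higher. IGFBP3 was 97.2, 84.1 and 90.0 TPM in Ctrl and 163, 153 and 120 TPM with LL-37, so that every LL-37 library lay above every Ctrl library. Its log2 change was 0.67 ± 0.15 (SE; limma, adjusted p = 0.739) with all libraries and 0.80 ± 0.08 without that library (adjusted p = 0.0111). The call without that library ended with the replicate block (limma, adjusted p = 0.0727). This direction was opposite to that of CCN1 and CCN2. NT5E, the next most abundant, was 76.4 ± 2.66 and 67.3 ± 21.1 TPM. With all libraries, 1 of the 14 lay wholly below Ctrl (RBMS3, named after its values were seen) and 1 wholly above (IGFBP3). Of all tested genes 10.3% and 2.13% did. Without LL-37 replicate 3, 1 lay wholly below and 4 wholly above, where 12.9% and 12.3% of all tested genes did. Over the 14, the median log2 change was -0.17 over all libraries and 0.09 once LL-37 replicate 3 was left out.

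Genes that share regulators with CCN1, CCN2 and THBS1 were read alongside. Of 14 listed serum response factor and actin genes, 12 were tested and 0 passed either way, with medians of -0.31 and -0.01. ACTG1 and ACTB, the cytoplasmic actins, were 1366 ± 95.8 and 1191 ± 279 TPM, and 1020 ± 55.01 and 880 ± 228 TPM. All 9 AP-1 and immediate early genes were tested and 0 passed, with medians of -0.18 and 0.10. FOSL1, the AP-1 subunit known for invasive cells, was 90.4, 80.8 and 84.5 TPM in Ctrl and 126, 104 and 55.7 TPM with LL-37, above Ctrl in replicates 1 and 2 and below it in replicate 3. JUND was 85.2 ± 12.5 and 71.9 ± 23.3 TPM.

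Of the 10 TGF-beta and SMAD genes, all tested, 0 passed with all libraries and 2 passed without LL-37 replicate 3, both lower, where 0.118% of all tested genes passed. These were ID1 and ID3, inhibitors of basic helix-loop-helix factors. ID1 was 76.7, 90.2 and 94.4 TPM in Ctrl and 47.9, 52.2 and 44.4 TPM with LL-37, and ID3 was 90.5, 97.3 and 101 and then 57.6, 55.8 and 66.3 TPM. With all libraries the log2 changes were -0.84 ± 0.13 and -0.68 ± 0.12 (SE; limma, adjusted p = 0.739 for both). Without LL-37 replicate 3 they were -0.78 ± 0.10 (SE; limma, adjusted p = 0.0378) and -0.75 ± 0.07 (adjusted p = 0.0111). The ID1 call ended when that fit also used median-of-ratios scaling (limma, adjusted p = 0.0852) or had length trends removed (0.0577). With the replicate block in that fit both calls ended (limma, adjusted p = 0.112 for ID1 and 0.115 for ID3). The secreted matrix protein gene TGFBI was 81.6, 97.4 and 105 TPM in Ctrl and 57.0, 68.3 and 38.7 TPM with LL-37. With all libraries the groups lay apart for 7 of the 10, all lower, where 10.3% of all genes lay wholly below. Without LL-37 replicate 3, 7 lay wholly below and 1 wholly above, where 12.9% and 12.3% of all genes did. This list was chosen with earlier results of these data known. Neither its counts beside these shares nor its median is therefore a test of the list. The list's median log2 change was -0.48 over all libraries and -0.22 once LL-37 replicate 3 was left out, against -0.45 and 0.03 for the YAP/TEAD targets.

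**Figure D5:**
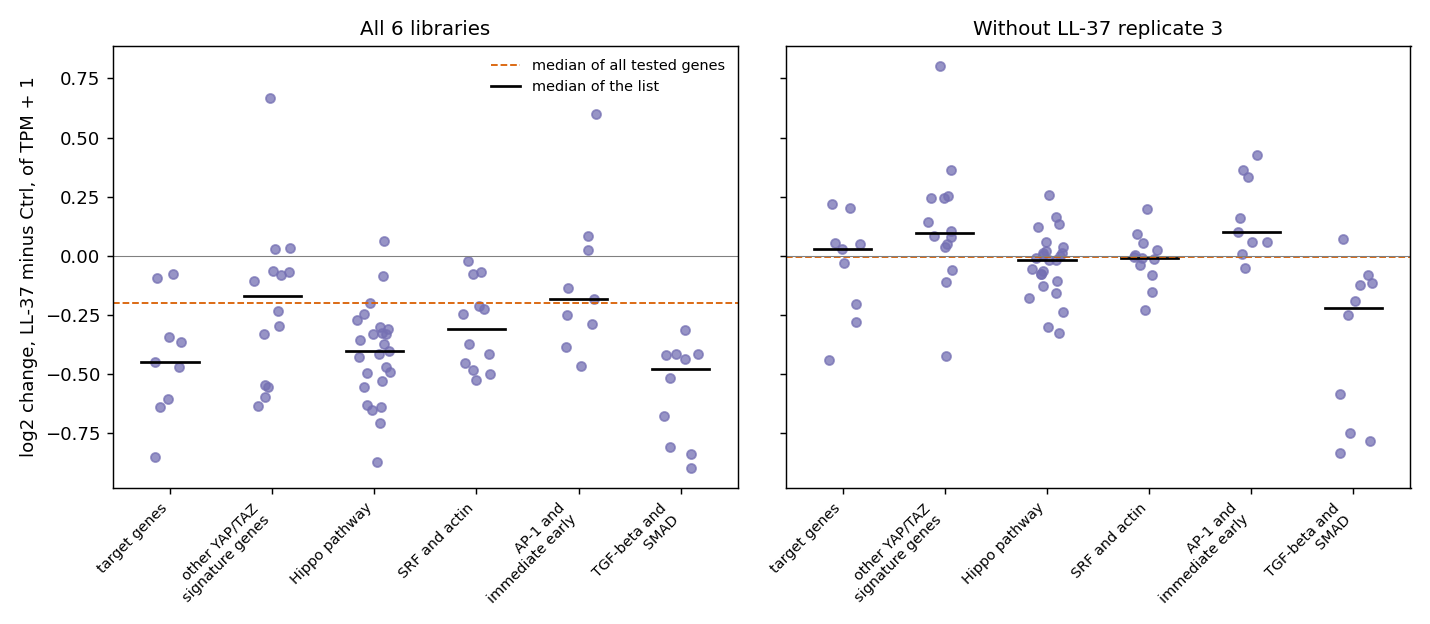
Log2 change of TPM + 1, LL-37 minus Ctrl, of each tested gene in the target list and 5 further lists, with all 6 libraries (left) and without LL-37 replicate 3 (right). Solid bars are list medians and the dashed line is the median of all tested genes. The target median moves from -0.45 to 0.03. That of the TGF-beta and SMAD genes stays below the dashed line, at -0.48 and -0.22. The lists were chosen with earlier results of these data known, so the medians are no test of them.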

How the data were processed

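Stranded poly(A) libraries were made, per the labels' protocols, and the authors deposited TPM per gene for 6 A375 libraries. The build is GRCh38 per the submitters' processing notes. Which aligner, quantification tool, annotation and strand setting they used is not given in the sources used here. The 4 mouse libraries among the 10 of the series were not used here. Symbols came from a gene name table that matched 62541 of 63140 identifiers, coordinates and the longest transcript per gene from GENCODE 29 (96.4% of tested genes), and promoter windows from RefSeq.

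Genes reaching 1 TPM in 3 or more libraries were tested as log2(TPM + 1) with limma 3.58.1 in R 4.3.3 (two-sided, intensity trend, Benjamini-Hochberg over all 14399 tested genes). The filter used all 6 libraries in each fit. TPM keep no depth, so no counting error can be given. Without LL-37 replicate 3, the LL-37 group held 2 libraries. The target genes and all lists were chosen with earlier results of these data known. Named were all 10 targets, YAP1, WWTR1 and the TEAD genes, and, of each other list, the 2 most abundant tested genes and those past the threshold. Outside this rule, MOB1A, AMOT, FRMD6 and RBMS3 were picked with their values known. Of the cell type marker lists, every gene was named. The test was checked on simulated data. The alternatives changed the pseudocount (0.1 or 5), the filter (none, or 5 TPM) and the scaling (median-of-ratios or quantile), or used a replicate block, no intensity trend, TPM without mitochondrial genes, each library left out and, chosen after seeing the data, removal of each library's length trend (lowess, span 0.5).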

Additional observations from a re-analysis of the deposited data

How the results depend on the processing

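No target gene passed in any of the 19 alternative settings. The count of all genes past the threshold, 0, ranged from 0 to 17 as single libraries were removed (17 without LL-37 replicate 3). Removing that library gave 2 with the replicate block, 9 with median-of-ratios scaling and 11 with length trends removed. For the further YAP/TAZ target genes the count ranged from 0 to 1 (IGFBP3), and was 1 under the last 2 of these combinations and 0 with the block. The median change of the targets ranged from -0.65 to 0.027 over single removals, and was 0.054, 0.028 and 0.025 under the 3 combinations in that order. Median-of-ratios scaling moved the median of all genes from -0.20 to 0.0070. Deviations of same-numbered libraries from their group means correlated at r = 0.0912, -0.196 and -0.168. The LL-37 mean includes replicate 3, so these values cannot decide whether the numbers mark pairs. The replicate block with all libraries gave 0 genes and no call of a target. F3 had no value under the filter of 5 TPM. Log2 changes that turned sign over single removals ranged from -0.36 to 0.22 for AJUBA, -0.97 to 0.049 for AMOTL1, -0.65 to 0.20 for AMOTL2, -0.41 to 0.075 for CD68, -0.16 to 0.027 for F3, -0.16 to 0.43 for FOSL1, -0.48 to 0.0066 for JUND, -0.13 to 0.42 for KDR, -0.41 to 0.051 for NT5E, -0.11 to 0.18 for PDGFRA, -0.60 to 0.12 for SCRIB, -0.33 to 0.37 for SOX10 and -0.58 to 0.054 for THBS1. Median-of-ratios scaling gave 0.0041 for ACTB, 0.026 for ACTG1, 0.11 for AJUBA, 0.019 for CD68, 0.052 for F3, 0.013 for NT5E and 0.18 for SOX10. Quantile normalization gave 0.16 for AJUBA and 0.083 for F3. Removal of length trends gave 0.17 for AJUBA, 0.042 for F3, 0.0085 for NT5E and 0.10 for SOX10. Without LL-37 replicate 3, median-of-ratios scaling gave 0.22 for AJUBA, 0.050 for AMOTL1, 0.20 for AMOTL2, 0.076 for CD68, 0.028 for F3, 0.0074 for JUND, 0.051 for NT5E, 0.12 for SCRIB, 0.37 for SOX10 and 0.055 for THBS1. Length trend removal there gave 0.22 for AJUBA, 0.051 for AMOTL1, 0.20 for AMOTL2, 0.074 for CD68, 0.025 for F3, 0.0056 for JUND, 0.051 for NT5E, 0.12 for SCRIB, 0.36 for SOX10 and 0.056 for THBS1. The replicate block there gave 0.032 for ACTB, 0.040 for ACTG1, 0.22 for AJUBA, 0.094 for AMOTL1, 0.26 for AMOTL2, 0.16 for CD68, 0.054 for F3, 0.096 for JUND, 0.043 for LATS2, 0.061 for NT5E, 0.17 for SCRIB, 0.40 for SOX10, 0.037 for TEAD3 and 0.17 for THBS1. A pseudocount of 5 gave -0.0043 for PDGFRA, and TPM without mitochondrial genes -0.00022 for PDGFRA. CCN1, CCN2 and CRIM1 had a negative change in all 19 settings. The cause of the turns was not tested. TPM keep no depth, which limits what can be said of F3 and ANKRD1.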
